A study of Mus musculus with 2 samples.

Results

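A set of 9 myeloid lineage transcription factor genes was followed in the meninges of mice 1 week after a mild traumatic brain injury (TBI) or a Sham procedure. The genes were Spi1, Cebpa, Cebpb, Cebpd, Maf, Nr1h3, Pparg, Nr4a1 and Id3, taken by gene symbol, and they make up 9 of the 32285 gene rows of the count matrices, with 1 row each. Counts came from 2 single-cell libraries of sorted live meningeal cells made with 10x Genomics 3′ chemistry, 1 for Sham and 1 for TBI. The Sham library pooled the dorsal meninges of 5 male C57BL/6 mice (C57BL/6J in the study's methods) aged 10 weeks, and the TBI library pooled 5 more such mice that had received the injury. All mice were wild-type, and by the study's methods a Sham mouse was anesthetized and the impactor was fired without touching it. With 1 pooled library per group no difference between Sham and TBI could be tested, so intervals below are 95% intervals of counting error only and do not cover the variation between mice.

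These proteins set or tune the identity of blood-derived cells. PU.1, the product of Spi1, opens chromatin for myeloid genes and is also needed early in B cell development, and the C/EBP factors act with it in granulocytes, monocytes and macrophages. c-Maf sustains the program of resident macrophages and also works in several T cell subsets, while LXRα (Nr1h3), PPARγ (Pparg) and NUR77 (Nr4a1) are nuclear receptors tied to cholesterol efflux, lipid handling and the survival of non-classical monocytes. Id3 has no DNA-binding region of its own and holds E proteins away from DNA.

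After filtering, 2043 Sham and 3773 TBI cells remained, with a median of 2764 and 2663 unique molecular identifiers (UMIs, one per captured transcript) per cell, and 14 cell barcodes occurred in both libraries. A limit on hemoglobin counts had been passed by 604 Sham and 431 TBI barcodes, which were left out. Clustering without the 9 genes gave 26 clusters, which marker genes placed in 19 classes that are called "-like" here because no cell annotation was used. The macrophage-like class held 362 Sham and 780 TBI cells, and all of its 16 marker genes were detected in both libraries. Its depth was unequal, with a median of 2236 UMIs per cell in Sham and 3918 in TBI. Levels are given as CPM, a gene's part of all UMIs of the same class and library multiplied by 1000000. This scales for the total UMIs of a class, but deeper cells weigh more in the sum and the floor of detection remains. Because the chemistry counts transcript ends, levels were compared between classes and not between genes.

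Promoter windows are shown because their genes, Nr4a1 and Id3, had the largest TBI to Sham ratios among the 9 in macrophage-like cells. They are RefSeq sequence of mouse build GRCm38.p6, the 250 bases before an annotated start, plus strand, 5′ to 3′. The Nr4a1 window lies at chr15:101266596-101266845 and the capitals mark TGCGTCA, a variant of the cAMP response element. The Id3 window lies at chr4:136143572-136143821 and the capitals mark the core promoter box TATAA.
Nr4a1: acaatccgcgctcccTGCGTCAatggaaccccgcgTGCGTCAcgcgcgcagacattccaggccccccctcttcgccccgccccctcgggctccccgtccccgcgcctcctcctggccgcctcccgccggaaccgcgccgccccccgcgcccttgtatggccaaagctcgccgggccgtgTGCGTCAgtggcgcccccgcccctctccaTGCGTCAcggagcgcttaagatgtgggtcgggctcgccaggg
Id3: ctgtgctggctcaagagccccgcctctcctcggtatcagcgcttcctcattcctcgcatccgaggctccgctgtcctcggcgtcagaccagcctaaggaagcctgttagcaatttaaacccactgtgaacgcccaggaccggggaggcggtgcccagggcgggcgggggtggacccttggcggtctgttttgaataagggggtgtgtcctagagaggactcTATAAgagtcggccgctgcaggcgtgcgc
The Nr4a1 window held 4 copies of TGCGTCA, at 235, 215, 71 and 42 bases before the start. On either strand (TGACGCA on the other) the motif was present in 574 of 32851 windows of the same length, or 1.75%, and 1 window held at least 4 copies. The TATAA of Id3 lay 29 bases before its start, and that motif or its complement TTATA was present in 22.8% of windows. Windows were found for 6 of the 9 genes. Among the others, with matches on either strand counted, TGCGTCA or TGACGCA lay 7 bases before the start of Cebpb. TATAA or TTATA lay 30 bases before the start of Cebpa. Such matches also lay 28 and 25 bases before a start of Pparg. These are matches of letters, not measured binding.

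In the GENCODE annotation on GRCm38 (mm10), Spi1 (chr2:91082390-91115756, plus strand) and Nr1h3 (chr2:91184061-91202834, minus strand) lie 68304 bases apart with the coding genes Mybpc3 and Madd between them. Cebpa (chr7:35119293-35121928), Cebpb (chr2:167688915-167690418) and Cebpd (chr16:15887286-15891031) each consist of 1 exon on the plus strand. Maf lies at chr8:115682942-115707794 on the minus strand, and Pparg (chr6:115360951-115490399), Nr4a1 (chr15:101254269-101274795) and Id3 (chr4:136143497-136145755) lie on the plus strand. Nr1h3 overlaps Gm13783 on its own strand, so its counts carry some uncertainty. Maf, Cebpa, Cebpb, Cebpd, Pparg and Nr1h3 each overlap a gene on the opposite strand.

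Spi1 was detected in all 6 myeloid classes and in proliferating-like, B-like and B precursor-like cells. Its level in non-classical monocyte-like cells was 897 CPM in Sham and 828 in TBI, and this class stood apart from the next by its counting intervals in both libraries. Macrophage-like (611 and 528), neutrophil-like (520 and 572), migratory dendritic-like (553 and 478) and conventional dendritic-like cells (525 and 486) followed and could not be ordered. Proliferating-like cells held 420 and 335, B-like cells 216 and 252 and B precursor-like cells 214 and 233. T-like cells, which should lack Spi1, had a UMI in 0 of 153 Sham cells, which allows a share of up to 1.96%, and in 1.75% of 228 TBI cells, against 67.7% and 69.7% of macrophage-like cells. Median depth in T-like cells was 3330 and 3221 UMIs.

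In macrophage-like cells Spi1 was lower in TBI, with 958 UMIs in Sham and 1885 in TBI and a log2 ratio of TBI over Sham of −0.21 (−0.32 to −0.10). The same direction held under all 14 other settings, from −0.29 to −0.20. With each cell thinned to 1000 UMIs, leaving 262 Sham and 662 TBI cells, 43.9% and 37.6% of cells had a Spi1 UMI. The change was under 1.5-fold, and conventional dendritic-like (−0.11, −0.26 to 0.03) and non-classical monocyte-like cells (−0.12, −0.44 to 0.21) had intervals that included 0. In fibroblast-like cells Spi1 had 0 UMIs in 122 Sham cells and 43 in 763 TBI cells. The TBI level was 2.32-fold the Sham floor of 3 counts over the class. That value leaves out the counting error of the TBI UMIs. With predicted doublets removed the counts were 0 and 9. The summed macrophage markers in fibroblast-like cells went from 124 to 652 CPM, with 4 and 0 of 16 markers at 0, and their part in the Spi1 difference was not tested.

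The C/EBP genes divided the myeloid classes differently. Cebpa, needed for granulocyte and monocyte progenitors, was highest in macrophage-like cells, where 128 Sham and 292 TBI UMIs gave 81.6 and 81.8 CPM (log2 ratio −0.00, −0.30 to 0.31). Non-classical monocyte-like (56.0 and 45.4) and conventional dendritic-like cells (46.3 and 51.9) followed among the myeloid classes, and pericyte or smooth muscle-like cells had 69.9 and 32.4 on 3 and 4 UMIs. B-like cells gave 0 Cebpa UMIs in 368 Sham and 288 TBI cells, which allows shares of up to 0.815% and 1.04%, against 23.5% and 26.9% of macrophage-like cells. Thinned to 1000 UMIs per cell, macrophage-like cells had 13 and 48 Cebpa UMIs, or 49.6 and 72.5 CPM (0.51, −0.36 to 1.56), and a mean over cells gave 0.36. With that thinning Cebpa was highest in non-classical monocyte-like cells.

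Cebpb, which drives inflammatory and monocyte survival genes, had its highest levels in neutrophil-like and non-classical monocyte-like cells. Neutrophil-like cells held 11 UMIs in 16 Sham cells (238 CPM) and 7 in 26 TBI cells (75.5), too few to read a ratio. Non-classical monocyte-like cells held 118 and 126 CPM and stood apart from the next class, fibroblast-like cells at 22.0 and 22.7. In macrophage-like cells Cebpb was sparse, with 11.5 CPM in Sham and 14.6 in TBI (0.32, −0.45 to 1.20).

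Cebpd, an acute-phase regulator, was highest in neutrophil-like cells, at 477 CPM in Sham and 842 in TBI. Fibroblast-like cells came next with 278 and 459, followed by pineal-like cells with 195 and 410, and neighbours in this order overlapped. Cebpd was higher in TBI in several classes. The log2 ratio was 0.72 (0.43 to 1.03) in fibroblast-like cells on 101 and 1030 UMIs, 0.80 (0.12 to 1.57) in neutrophil-like cells and 1.02 (0.16 to 2.13) in pineal-like cells. Over all genes the share past 1.5-fold was 33.4% in neutrophil-like and 41.1% in pineal-like cells. In pineal-like cells the 8 choroid plexus markers went from 47286 to 5507 CPM with none at 0, the 16 macrophage markers from 142 to 1047 (9 and 2 at 0) and the 20 dissociation-induced genes from 4796 to 6646 (3 and 0 at 0), and their part in the Cebpd difference was not tested. It was under 1.5-fold in endothelial-like cells (0.54, 0.19 to 0.91) and macrophage-like cells (148 to 180 CPM, 0.28, 0.06 to 0.50). One Sham fibroblast-like cell held 22.8% of that class's Cebpd UMIs.

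**Figure D1:**
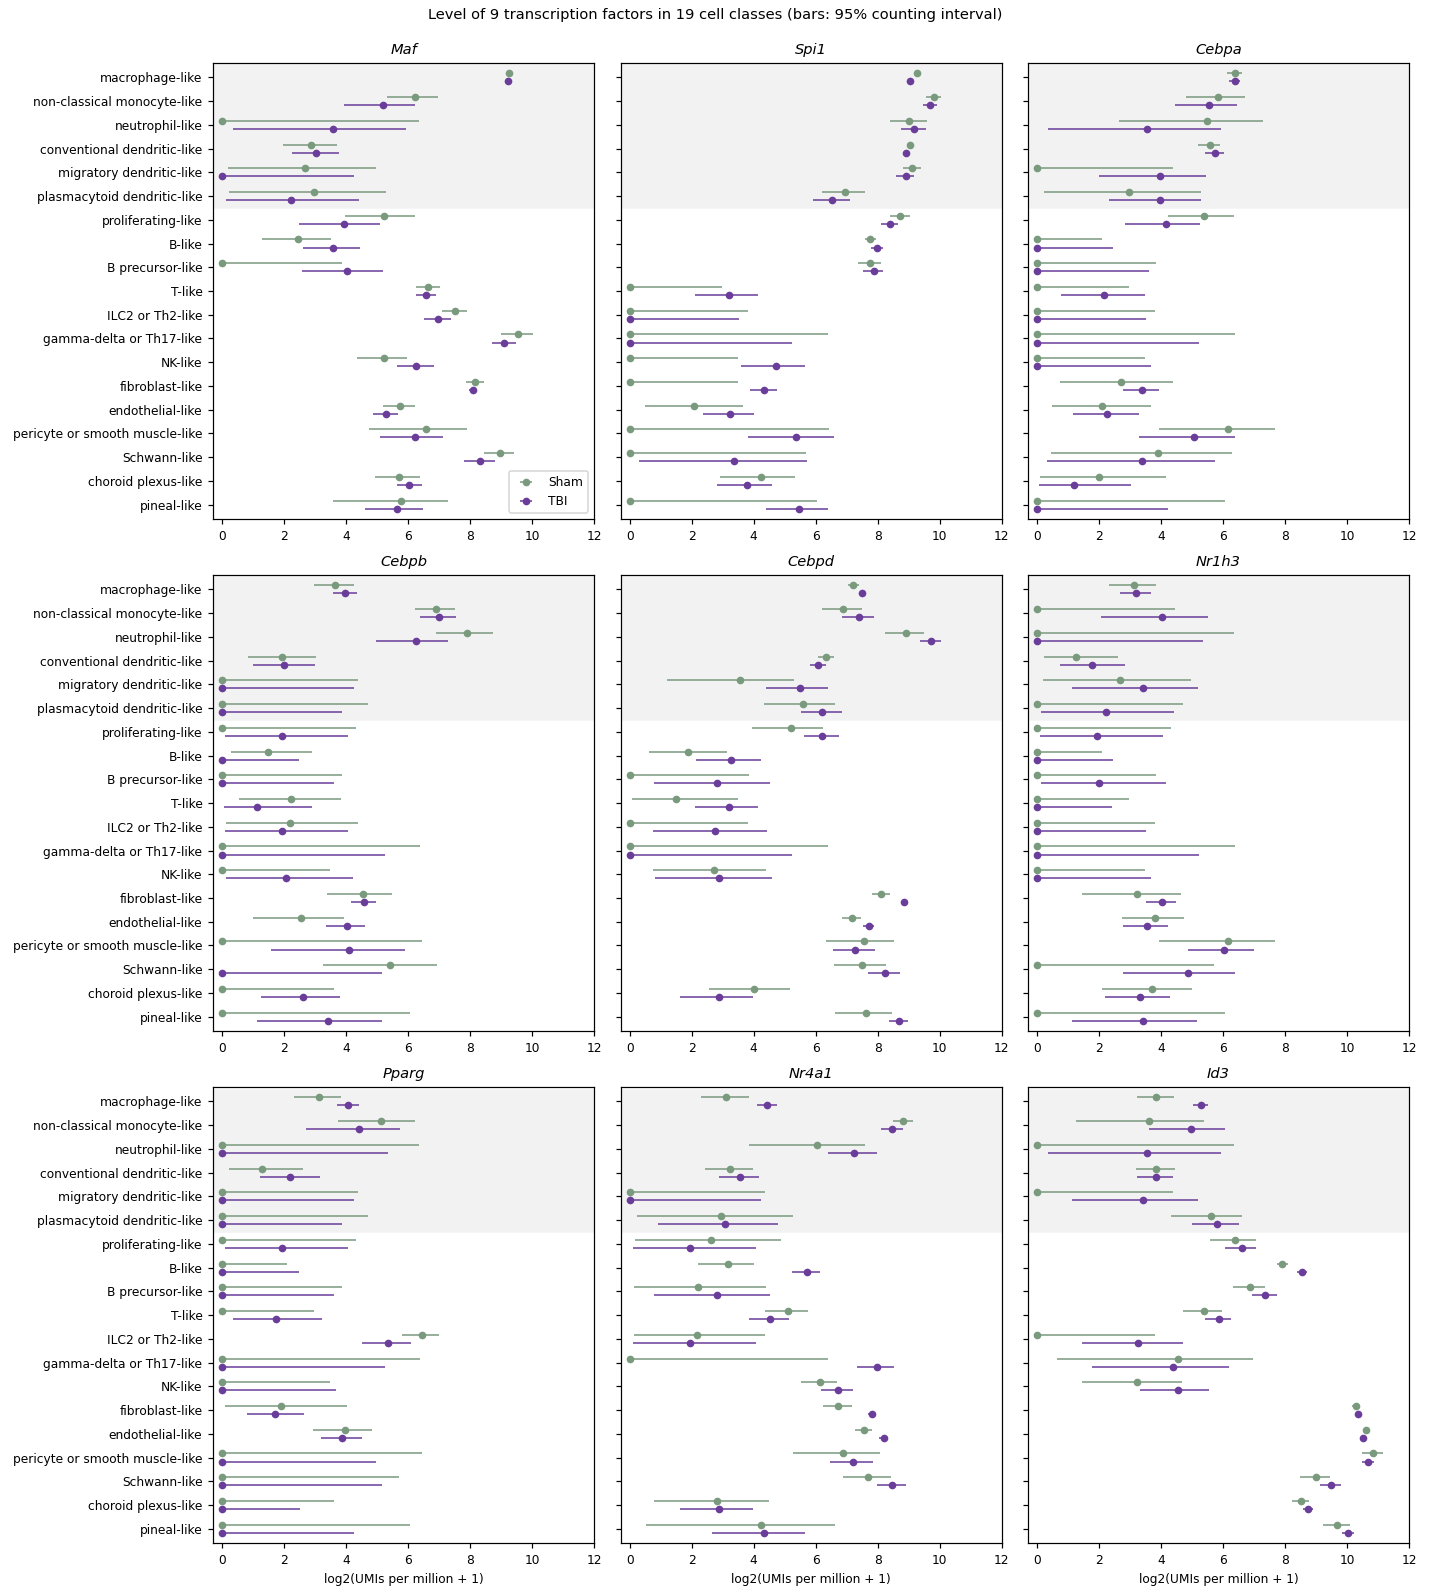
Level of each of the 9 genes in 19 cell classes as log2(CPM + 1), Sham in green and TBI in purple, with bars for the 95% counting interval and shading behind the 6 myeloid classes. Spi1 sits at 611 and 528 CPM in macrophage-like cells and at 0 in Sham T-like cells, while Id3 peaks in pericyte or smooth muscle-like and endothelial-like cells.

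Maf marked macrophage-like cells within the myeloid lineage but was shared with other lineages. Its level in macrophage-like cells was 610 CPM in Sham and 599 in TBI, on 957 and 2137 UMIs. Gamma-delta or Th17-like cells held 738 and 547 in 13 and 31 cells, not apart from the macrophage-like level. Schwann-like cells held 496 and 317, and fibroblast-like cells 283 and 269. Conventional dendritic-like cells, deeper at a median of 10042 and 7258 UMIs per cell, held 6.31 and 7.16, and 3.16% and 4.17% of them had a Maf UMI against 57.7% and 66.3% of macrophage-like cells.

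Over all macrophage-like cells Maf gave a log2 ratio of −0.03 (−0.14 to 0.08). Its level varied several-fold among their 3 clusters. The cluster led by Folr2, Cd209f and Fcrls had 1118 CPM in Sham and 901 in TBI, a log2 ratio of −0.31. The cluster led by Ccl8, Hpgds and Cd209g had 724 and 694, and the cluster led by Cx3cr1, Fcgr4 and Slamf9 had 231 and 269. When the myeloid cells were clustered again on their own, the subcluster led by Lyve1, Pmp22 and Fcrls held 1274 and 965 CPM (−0.40, −0.55 to −0.25). The subcluster led by Tmem119, Olfml3 and F11r held 263 and 303. Maf was therefore lower in TBI in its highest subcluster while the class as a whole was level. The Folr2 cluster held 117 of the 362 Sham and 323 of the 780 TBI macrophage-like cells. With clusters weighted alike the Maf ratio was −0.17, and the part of this mix in the class ratio was not tested.

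Spi1 varied less across those subclusters. It was 673 in Sham and 527 in TBI in the subcluster led by Lyve1, Pmp22 and Fcrls (−0.35), and 918 and 888 in the subcluster led by the interferon-induced genes Cxcl10, Cxcl9 and Rsad2. The subcluster led by Ace, Apoc2 and Treml4, which matched the non-classical monocyte-like class, had 880 and 853. It also held the highest Nr4a1, 472 and 381, and Cebpb at 122 and 131. Outside it Nr4a1 reached 65.0 and 151 in the neutrophil-like subcluster and at most 27.6 in any of the other 9. The subcluster led by Cox6a2, Klk1 and Ly6d, plasmacytoid dendritic-like, had Spi1 at 172 and 91.8 on 29 and 25 UMIs (−0.90, −1.74 to −0.08). It held 23 Sham cells, and the plasmacytoid dendritic-like class, with 20, had 122 and 91.8 on 18 and 25 UMIs (−0.42, −1.34 to 0.55). The 9 genes were left out when subclusters were made, and Nr4a1 was among the leading genes ranked afterwards in the Ace subcluster.

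**Figure D2:**
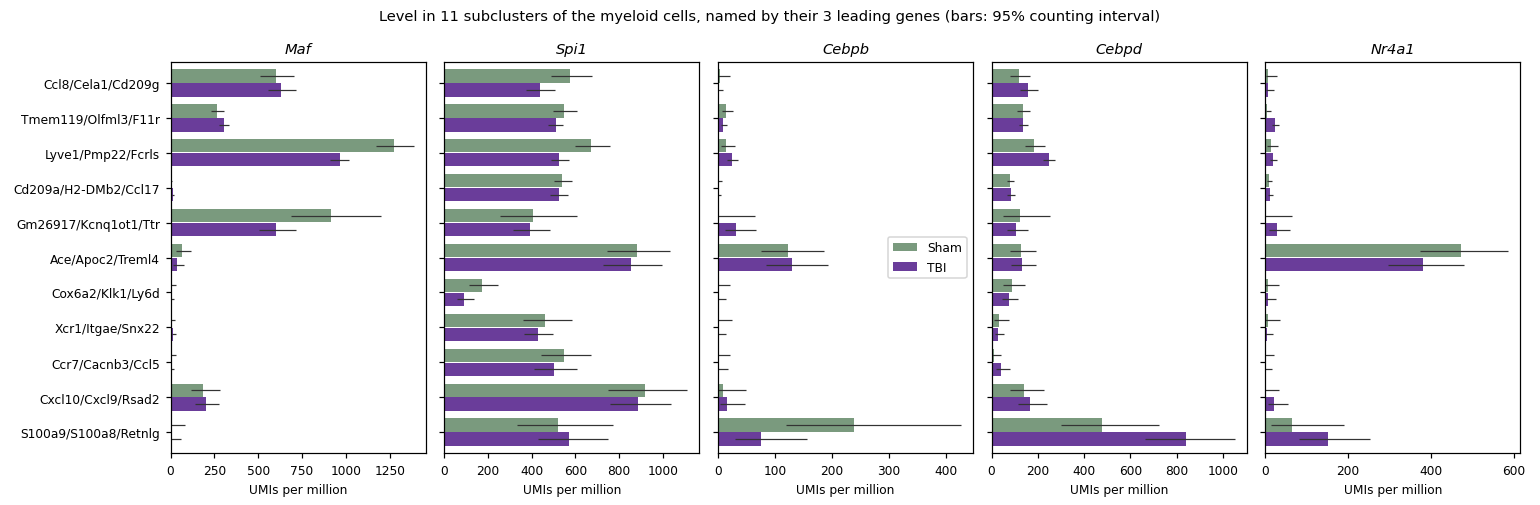
Level of 5 of the genes in CPM, on a linear axis, in 11 subclusters of the myeloid cells named by their leading genes, Sham in green and TBI in purple with 95% counting intervals. Maf is highest in the Lyve1, Pmp22 and Fcrls subcluster at 1274 and 965, and Nr4a1 in the Ace, Apoc2 and Treml4 subcluster at 472 and 381.

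The nuclear receptor genes were sparse in macrophage-like cells. Nr1h3 gave 12 Sham and 29 TBI UMIs there, 7.65 and 8.12 CPM (0.05, −0.93 to 1.19). Its highest level was in pericyte or smooth muscle-like cells, at 69.9 and 64.7 CPM, but on 3 and 8 UMIs. No class other than that one reached 30 CPM in either library.

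Pparg was highest in ILC2 or Th2-like cells, at 85.1 CPM in Sham and 39.7 in TBI, on 24 and 14 UMIs (−1.08, −2.17 to −0.09), in a class where 20.2% of all genes passed 1.5-fold. Non-classical monocyte-like cells (33.6 and 20.2 on 6 and 4 UMIs) were not apart from that class. They were highest with cells thinned to 1000 UMIs. Pparg was the only 1 of the 9 genes past 1.5-fold on the lower side in TBI, in any class, with an interval that did not include 0. In macrophage-like cells it went the other way, with 12 and 56 UMIs, or 7.65 and 15.7 CPM (0.99, 0.12 to 2.07), and 3.31% and 6.03% of cells had a UMI. B-like cells held 0 Pparg UMIs in both libraries, which allows shares of up to 0.815% and 1.04%. Within the cluster led by Folr2, Cd209f and Fcrls the counts were 1 and 22 (2.39, 0.31 to 8.31). The cluster led by Cx3cr1, Fcgr4 and Slamf9 held 10 of the 12 Sham UMIs and 28 in TBI, or 12.0 and 17.2 CPM. The cluster led by Ccl8, Hpgds and Cd209g held 1 and 6.

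Nr4a1, an immediate early gene as well as a monocyte factor, had its highest mean of both libraries in non-classical monocyte-like cells. Their level was 454 CPM in Sham and 353 in TBI (−0.36, −0.84 to 0.12). Schwann-like cells (207 and 355) were not apart from them and lay level with them in TBI. Endothelial-like (187 and 293) and fibroblast-like cells (105 and 223) followed. Outside the monocytes it was higher in TBI in the classes with the most UMIs. The ratio was 1.07 (0.61 to 1.61) in fibroblast-like cells on 38 and 500 UMIs, with 26.3% of the Sham UMIs in 1 cell and a ratio of 0.56 as a mean over cells. It was 0.65 (0.35 to 0.97) in endothelial-like cells on 115 and 387. Egr1, Ier3 and Socs3, which tissue dissociation induces, were picked by their macrophage-like ratios. In fibroblast-like cells they went from 138 to 215, 52.3 to 59.7 and 0 to 17.4 CPM. In endothelial-like cells they went from 118 to 151, 136 to 185 and 25.9 to 44.0. Their part in the Nr4a1 and Cebpd differences of these classes was not tested. Macrophage-like cells went from 7.65 to 20.4 CPM (1.37, 0.53 to 2.44), although 1 TBI cell held 20.5% of the 73 UMIs.

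Single cells weighed heavily on Nr4a1 in lymphoid classes. B-like cells gave 9 and 42 UMIs (2.62, 1.63 to 3.91), of which 1 TBI cell held 64.3%, and without the top cell of each library the ratio was 1.72 on 6 and 15 UMIs. Gamma-delta or Th17-like cells gave 0 Sham and 25 TBI UMIs, but 1 cell held 20 of the 25. Their TBI level was 3.71-fold the Sham floor of 3 counts over the class, with the counting error of the TBI UMIs left out. Of all genes, 24.5% passed 1.5-fold in this class. In T-like cells the ratio of −0.59 (−1.60 to 0.42) turned to 0.14 without the top cells.

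Id3 went against a myeloid label, since myeloid classes held only 2.35% of its Sham UMIs and 2.87% of its TBI UMIs. Pericyte or smooth muscle-like cells had 1816 and 1651 CPM and endothelial-like cells 1560 and 1463, both above fibroblast-like cells at 1244 and 1312. B-like cells had 239 in Sham and 372 in TBI (0.63, 0.39 to 0.88) on 270 and 304 UMIs, where 15.5% of all genes passed 1.5-fold. In B-like cells the 10 fibroblast markers went from 35.5 to 347 CPM (3 and 0 at 0), the 16 macrophage markers from 20.4 to 230 (6 and 1 at 0) and the 8 choroid plexus markers from 85.2 to 279 (3 and 2 at 0), and their part in the Id3 difference was not tested. In fibroblast-like and endothelial-like cells the log2 ratios were 0.08 (−0.07 to 0.22) and −0.09 (−0.21 to 0.02), intervals that include 0 and reach little beyond 0.2 in size.

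In macrophage-like cells Id3 had 21 UMIs in Sham and 136 in TBI, or 13.4 and 38.1 CPM (1.48, 0.84 to 2.25). The share of cells with a UMI was 4.97% and 13.2%, and 2.29% and 4.68% after thinning to 1000 UMIs. It was higher in TBI in each of the 3 macrophage-like clusters, by 1.02, 1.80 and 1.83 on the log2 scale. Those ratios rest on few Sham counts, with 13 and 78, 5 and 37, and 3 and 21 UMIs in Sham and TBI. These levels are low beside the stromal classes, and conventional dendritic-like cells held 13.3 and 13.1. T-like cells had 40.5 and 56.7, above macrophage-like cells in Sham, while in TBI the counting intervals overlapped.

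Markers of other cells moved with Id3, Nr4a1 and Pparg in macrophage-like cells. The 10 fibroblast markers summed to 307 CPM in Sham and 547 in TBI, with none at 0, the 11 endothelial markers to 47.2 and 84.0, with 2 and 0 at 0, and the 9 pericyte or smooth muscle markers to 7.65 and 23.8, with 2 and 1 at 0. The 8 choroid plexus markers summed to 71.4 and 252, with 4 and 1 at 0, and the 6 red cell markers to 1873 and 245, with none at 0. A UMI of a fibroblast, endothelial or pericyte marker was present in 58.8% of the 362 Sham cells and in 83.3% of the 780 TBI cells. In the 149 Sham and 130 TBI cells without one, at a median of 1316 and 2145 UMIs per cell, Id3 had 0 and 7 UMIs, Nr4a1 3 and 20, and Pparg 5 and 5. Spi1 had 242 UMIs in both, or 583 CPM in Sham and 506 in TBI. In those cells Pparg lost its direction (−0.20) and Nr4a1 went from 7.22 to 41.8 CPM (2.35, 0.78 to 4.93). Id3 had no Sham count, and its TBI level was 2.02-fold the Sham floor of 3 counts. That value leaves out the counting error of its 7 TBI UMIs. The part of other cells' RNA in the 3 differences was not tested.

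**Figure D3:**
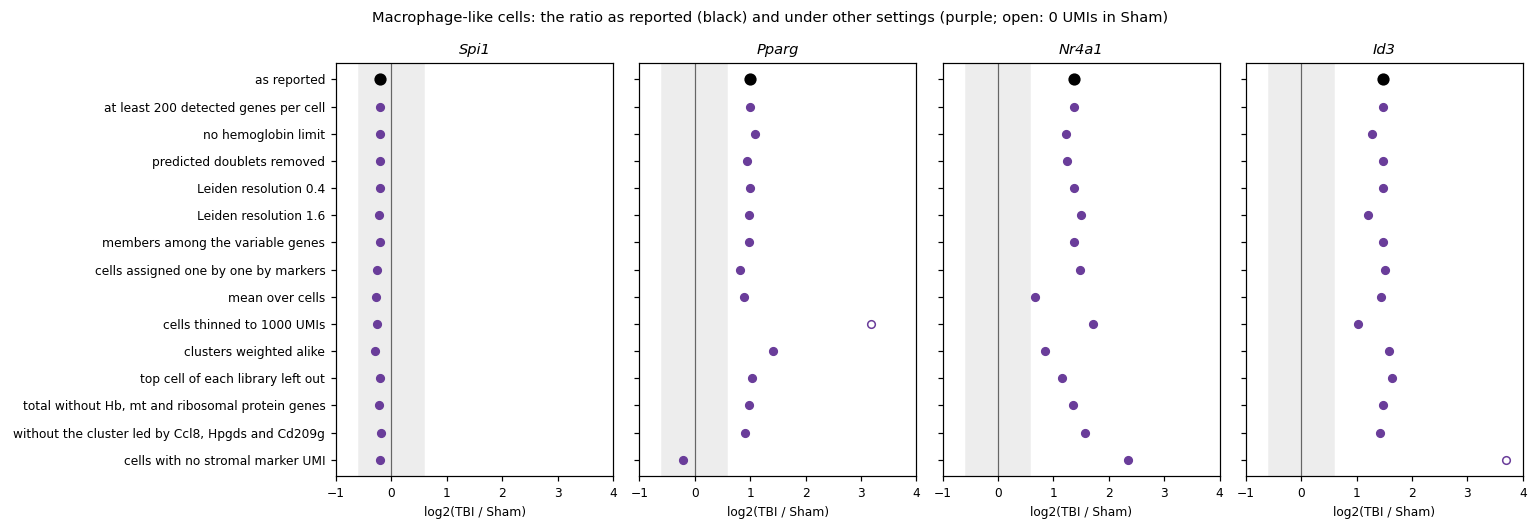
Log2 ratio of TBI over Sham in macrophage-like cells for 4 of the genes, as reported in black and under 14 other settings in purple, open points having 0 Sham UMIs and grey marking under 1.5-fold. Spi1 stays between −0.29 and −0.20, and Pparg falls to −0.20 in cells with no stromal marker UMI.

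Counted together, 3 of the 9 genes passed 1.5-fold between the libraries in macrophage-like cells (Pparg, Nr4a1 and Id3, all higher in TBI), where 12.2% of the 9805 genes with at least 20 UMIs did. The count was 0 of 6 genes with enough UMIs in conventional dendritic-like cells, beside 14.1% of all genes, and 1 of 5 in non-classical monocyte-like cells, beside 22.0%, where Maf had 13 and 7 UMIs and an interval of −2.61 to 0.39. It was 2 of 7 in endothelial-like cells, Cebpb (1.45, −0.11 to 4.03) and Nr4a1, beside 17.2%. It was 4 of 8 in fibroblast-like cells, beside 24.2%: Spi1, Cebpd, Nr1h3 (0.67, −0.79 to 3.22) and Nr4a1. Of 171 gene and class pairs, 69 had 20 UMIs, 23 passed 1.5-fold and 14 of these had an interval that did not include 0, with 13 higher in TBI and Pparg in ILC2 or Th2-like cells lower. The share of all genes with such an interval was not computed, so that count and its direction are not set apart. All genes past 1.5-fold higher and lower in TBI numbered 738 and 457 in macrophage-like, 905 and 648 in endothelial-like and 1224 and 1317 in fibroblast-like cells. Over all genes with 20 UMIs the share past 1.5-fold ran from 12.2% in macrophage-like to 41.1% in pineal-like cells across the 19 classes.

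**Figure D4:**
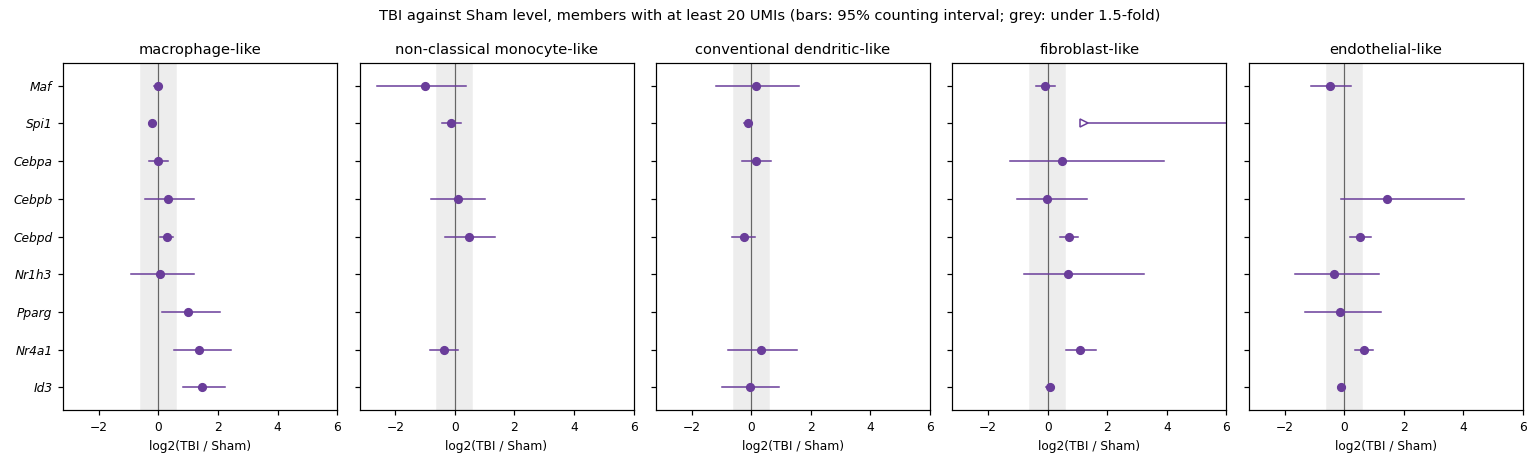
Log2 ratio of TBI over Sham in 5 classes for the genes with at least 20 UMIs, bars showing the 95% counting interval and grey marking under 1.5-fold. The open triangle for Spi1 in fibroblast-like cells, which had 0 Sham UMIs, is the log2 ratio of its TBI level over the Sham floor, 1.21. It leaves out the counting error of the TBI UMIs, so it is neither a lower bound nor the end of a 95% counting interval. Id3 is at 1.48 in macrophage-like cells and at 0.08 in fibroblast-like cells.

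The classes that held each gene's UMIs differed between the libraries. Such a share depends on both the number of cells and the level within them, which were not separated. Fibroblast-like cells numbered 122 in Sham and 763 in TBI, and they held 15.9% and 43.2% of Cebpd UMIs, 11.2% and 39.9% of Nr4a1 UMIs and 21.6% and 46.4% of Id3 UMIs. Over whole libraries Cebpd went from 81.0 to 171 CPM (1.08) and Nr4a1 from 43.2 to 89.8 (1.05), larger than their ratios within fibroblast-like cells for Cebpd and about equal for Nr4a1. Id3 went from 266 to 455 over whole libraries (0.78) with almost no difference within fibroblast-like or endothelial-like cells. Spi1 (83.7% and 86.0%) and Cebpa (92.4% and 90.6%) had most of their UMIs in the myeloid classes, Maf 73.3% and 68.7%. How many cells of a class reached a library depends on digestion and sorting as well as on the tissue, and these cannot be told apart here.

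**Figure D5:**
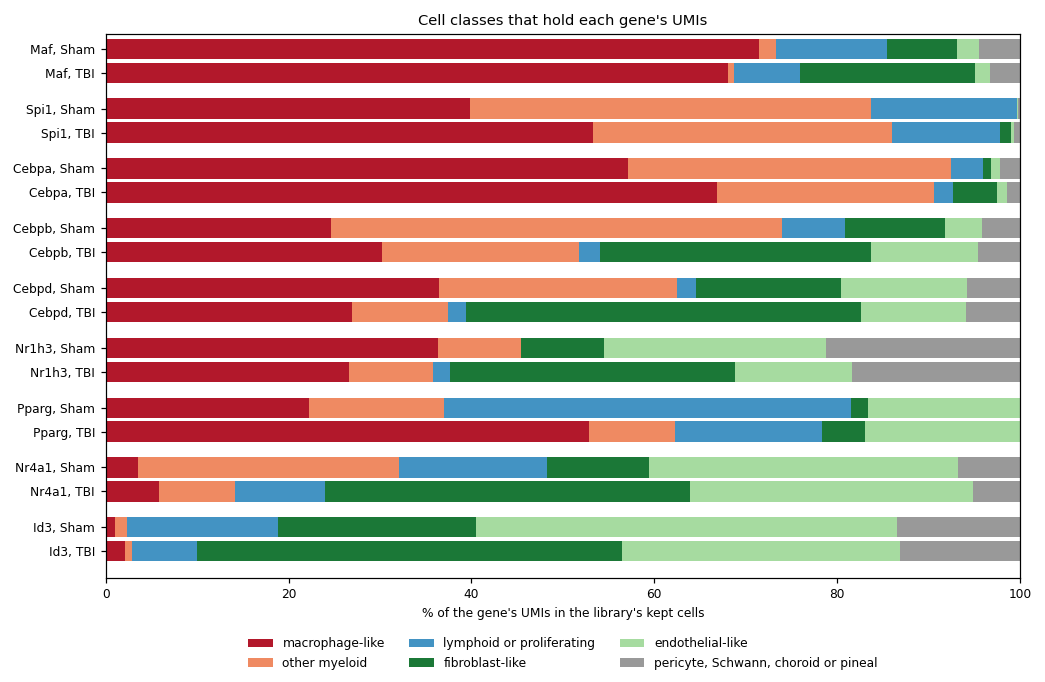
Percent of each gene's UMIs held by 6 groups of cell classes, 1 bar per gene and library. Myeloid classes (red and orange) hold 83.7% and 86.0% of Spi1 UMIs but 2.35% and 2.87% of Id3 UMIs, and the fibroblast-like share of Cebpd goes from 15.9% in Sham to 43.2% in TBI.

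Relatives and targets of the 9 genes were followed in macrophage-like cells through gene lists, beside a median log2 ratio of 0.02 over all genes. Of all genes with 20 UMIs in this class, 12.2% passed 1.5-fold. Of 19 family relatives, 13 had 20 UMIs and 2 passed 1.5-fold, both Id genes and both higher in TBI, for a median of 0.28. They were Id1 with 7 and 42 UMIs (1.32) and Id2 with 41 and 177 (0.91). In the cells with no stromal marker UMI Id1 had 0 and 2 UMIs, and Id2 13 and 14 (31.3 and 29.3 CPM). With 13 genes to count, the list is not set apart by these numbers. The 3 E proteins that Id3 binds had a median of 0.00 with none past 1.5-fold.

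All 16 Spi1 targets had enough UMIs, none passed 1.5-fold, and their median was 0.02. Among 22 other myeloid transcription factors 20 had enough, Nfil3 alone passed with an interval including 0, and the median was −0.02. In 7 of the 8 Maf-dependent macrophage genes with enough UMIs none passed (median 0.10). In 10 of the 12 Nr1h3 targets with enough UMIs Apoc1 alone passed, lower and with an interval including 0 (median −0.02). These lists stayed near the all-gene median, and their counts past 1.5-fold stand beside 12.2% of all genes.

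Some C/EBP and Pparg targets passed, beside the 12.2% of all genes that did in this class. With 7 genes of each list to count, no list is set apart by these numbers. Of 12 C/EBP targets 7 had enough UMIs and 3 were higher in TBI, with a median of 0.47. They were the neutrophil gene S100a9 with 9 and 52 UMIs (1.28), the cytokine gene Il1b with 118 and 451 (0.74) and the chemokine gene Ccl2 with 81 and 302 (0.71). Of 10 Pparg targets 7 had enough and 2 were higher, the lipid carrier genes Fabp4 with 1 and 74 UMIs (4.45, 2.50 to 10.35) and Fabp5 with 21 and 87 (0.84), while the median was −0.04. Fabp4 was abundant in endothelial-like cells (560 and 998 CPM) and S100a9 in neutrophil-like cells (139813 and 155473), and the part of RNA from those cells was not tested. In the macrophage-like cells with no stromal marker UMI Fabp5 had 12 and 5 UMIs (28.9 and 10.4 CPM) and Fabp4 0 and 2. There S100a9 had 2 and 8, Il1b 34 and 102 and Ccl2 31 and 54. Of 20 genes known to be induced by tissue dissociation 19 had enough UMIs and 4 passed 1.5-fold, Socs3 (1.05), Egr1 (0.90), Ier3 (0.76) and Fosb on 7 and 27 UMIs (0.69, −0.47 to 2.20), for a median of 0.23, and their sum went from 3945 to 4117 CPM.

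In macrophage-like cells thinned to 1000 UMIs, none of the 9 was detected in 77 of 262 Sham and 180 of 662 TBI cells, and at least 3 were detected in 12 and 37. Maf and Spi1 occurred together in 56 Sham cells, where the product of their shares gives 48.3, and in 89 TBI cells, where it gives 97.0. Those ratios of 1.16 and 0.92 lie on either side of 1.

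Likeness in log2 level was measured across 17 classes by Pearson's r, the lower of both libraries, over 11704 genes. Classes with under 20 cells in a library were left out, namely neutrophil-like (16 in Sham) and gamma-delta or Th17-like cells (13 in Sham). Those classes held the highest Cebpb and Cebpd and the highest Maf. Among the 3 genes most like Spi1 was Ly86 (0.90). For Id3 the 3 were Cnn3 (0.89), Armcx1 (0.86) and Timp3 (0.86), for Cebpd Fcgrt (0.88), Gamt (0.83) and Plxnb2 (0.82), and for Cebpa F630028O10Rik (0.85), Cd300c2 (0.81) and Ccl6 (0.80). Nr1h3 was closest to Vstm4 (0.83), C1s1 (0.82) and Gjc1 (0.82), Cebpb to Tnfsf13 (0.83), Mmp8 (0.76) and Fam20c (0.76), and Maf to Wwp1 (0.82), Tanc2 (0.77) and Snx14 (0.72). Nr4a1 was closest to Gm26532 (0.79), Nod1 (0.78) and Smurf2 (0.76), and Pparg to Alox5 (0.74), Tmem273 (0.71) and Ltb4r1 (0.69). Of the 27 genes found this way, 7 were also found when the offset was 1 in place of 10. Among the 9 genes Cebpb and Nr4a1 were most alike (0.71 in Sham and 0.58 in TBI). The r of Id3 and Spi1 was negative (−0.52 and −0.42), and so was that of Maf and Spi1 (−0.42 and −0.46). Maf (610 and 599 CPM) and Spi1 (611 and 528) were nonetheless both high in macrophage-like cells. Values between the 9 genes were computed with the offset of 10 only. The classes share 2 libraries and differ in depth, so these values are descriptions.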

How the data were processed

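Single-cell RNA sequencing counts were analysed for 1 Sham and 1 TBI library. The authors processed reads with Cell Ranger against mm10 (version 2.1.1 in the submitters' processing notes, 3.1.0 in the matrix header, an earlier one in the study's methods) and deposited raw UMI counts per gene and cell barcode. Here, cells with 150 to 5000 genes, at most 20% mitochondrial and at most 5% hemoglobin counts were kept. Counts were log-normalised, 2000 variable genes without the 9 genes gave 20 principal components, and cells were clustered (Leiden, resolution 0.8, 20 neighbours) and named by markers (Python 3.11.15, scikit-learn 1.9.0, leidenalg 0.10.2). Predicted doublets were kept, and removed as an alternative. UMIs were summed per class and library. Ratios add 0.5 UMIs and are read from 20 UMIs, with 95% exact counting intervals. Named genes were the 9 genes, list genes past 1.5-fold and the 3 most similar genes per member. A few genes that this rule or the lists name are not reported here. Members and lists were chosen with earlier results of these data known. The ratio and interval code was tested on simulated counts, and the other steps were not. Kept totals were 7866611 and 13940740 UMIs.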

Additional observations from a re-analysis of the deposited data

Results flagged for a closer look

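Pparg differed between classes under the same contrast. Its log2 ratio of TBI over Sham was 0.99 in macrophage-like cells and −1.08 in ILC2 or Th2-like cells, with counting intervals on opposite sides of 0. In macrophage-like cells with no stromal marker UMI the Pparg ratio turned to −0.20 on 5 and 5 UMIs. There was 1 library per group, so the difference between the classes was not tested.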

How the results depend on the processing

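Of 126 alternative ratios in macrophage-like cells 116 moved by less than the counting interval, and of 178 in other classes 166 did. Leaving out the shallow cluster or cells with stromal markers, and the top cells in the counts, was chosen after seeing the data. Maf moved to −0.14 with cells assigned singly and −0.17 with clusters weighted alike. A mean over cells gave Cebpa 0.36, Cebpb 1.22 and Nr4a1 in T-like cells 0.16, reversed from −0.59, as did leaving out its top cell (0.14). Without stromal marker UMIs, Cebpb was 1.38, Pparg −0.20 and Id3 3.70, which the offset sets against 0 Sham UMIs. Against the Sham floor of 3 counts Id3 was 2.02-fold, with the counting error of the TBI UMIs left out. Thinning to 1000 UMIs gave ratios of 0.51 for Cebpa, 0.57 for Cebpd and 3.19 for Pparg. The Pparg ratio stood on 0 Sham and 11 TBI UMIs. Its TBI level was 1.45-fold the Sham floor, likewise without counting error, which sets no lower bound. Thinned CPM levels in Sham and TBI were 698 and 653 for Maf, 49.6 and 72.5 for Cebpa, 19.1 and 25.7 for Cebpb and 22.9 and 49.8 for Id3. Thinning gave 494 for Spi1 in TBI and, in Sham, 122 for Cebpd, 0 for Pparg and 3.82 for Nr4a1. With thinning 4 of 9 genes (Spi1, Cebpb, Cebpd and Nr4a1) kept their class of highest level. That class became macrophage-like for Maf, non-classical monocyte-like for Cebpa and Pparg, Schwann-like for Nr1h3 and endothelial-like for Id3. Members past 1.5-fold became 2 (doublets removed) or 4 (mean over cells) in place of 0 in conventional dendritic-like cells, and 2 (mean over cells, or top cells left out) in place of 1 in non-classical monocyte-like cells. Requiring 50 UMIs, 6.77% of genes passed in macrophage-like, 7.72% in conventional dendritic-like, 12% in non-classical monocyte-like, 9.66% in endothelial-like and 16.7% in fibroblast-like cells. With an offset of 1, 7 similar genes were shared. The cause of these moves was not tested. No paired analysis was possible because each group had 1 library and no result comes from a test.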
